A study of Homo sapiens with 12 samples.

Results

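The proteins of the mitochondrial ribosome are made from nuclear genes whose symbols begin with MRPL or MRPS, and these genes were followed here across 4 groups of human prostate cancer cells. Every gene of the deposited expression table whose symbol was MRPL or MRPS followed by a digit was taken, which gave 78 genes, 49 named MRPL and 29 named MRPS, of 19973 genes in all. 22Rv-1 cells, from a castration-resistant prostate cancer xenograft line, carried a lentivirus with a short hairpin against ARv7 (22Rv-1 shARv7) or a control hairpin (22Rv-1 control). C4-2 cells, derived from the LNCaP prostate cancer line and resistant to castration, carried a lentivirus expressing ARv7 (C4-2 ARv7) or a control lentivirus (C4-2 control). ARv7 is a splice variant of the androgen receptor that lacks the part that binds hormone. All 4 groups were infected and grown in RPMI medium with serum, and RNA came from 3 dishes of each group, 12 libraries in all. The dishes are the replicates, so p-values measure the spread between dishes, and the labels do not say how many infected lines stood behind a group.

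Mitochondria hold their own ribosome, which translates only the few proteins encoded by mitochondrial DNA, all of them membrane subunits of the respiratory chain and of ATP synthase. Its ribosomal RNAs come from mitochondrial DNA, whereas its proteins are encoded in the nucleus, made in the cytosol and imported. A large subunit joins amino acids and a small subunit reads the messenger RNA. About the core of proteins with counterparts in bacterial ribosomes lie others that arose with mitochondria. The symbol does not always give the subunit: MRPS18A and MRPS30 sit in the large one. By the lists used here 51 members belonged to the large subunit and 26 to the small one, while MRPS36, since assigned to an enzyme complex of the citric acid cycle, was placed on neither list.

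Promoters are shown first, because a pair of short motifs was common among the members and because members with and without them were among those that changed most. RefSeq sequence on GRCh38.p14, running from 250 bases before each gene's start as RefSeq places it to 50 after it, was at hand for 69 of the 78 members. The motif CCGGAAG, the core bound by ETS factors such as GABPA, was found on either strand in 29 of these, 42%, against 14.4% of 15166 promoters of genes in the expression table and 10.3% of all 35116 promoters. AAGATGGC, the motif bound by YY1, was found in 20 members, 29%, against 4.0% of the table's genes and 2.89% of all promoters. Both motifs were present in 8 members, 11.6%, against 0.923% of the table's genes, and 28 members had neither. RefSeq's starts can differ from those of the expression table, and the windows of MRPS6 and MRPL51 lie within the gene as the table gives it. Each printed sequence runs 5′ to 3′ on the gene's own strand with motif letters in capitals, where CTTCCGG is CCGGAAG read on the other strand. MRPL51, MRPS18A and MRPL52 held both motifs, and lie at chr12:6493213-6493512 on the minus strand, chr6:43687742-43688041 on the minus strand and chr14:22829637-22829936 on the plus strand.
MRPL51: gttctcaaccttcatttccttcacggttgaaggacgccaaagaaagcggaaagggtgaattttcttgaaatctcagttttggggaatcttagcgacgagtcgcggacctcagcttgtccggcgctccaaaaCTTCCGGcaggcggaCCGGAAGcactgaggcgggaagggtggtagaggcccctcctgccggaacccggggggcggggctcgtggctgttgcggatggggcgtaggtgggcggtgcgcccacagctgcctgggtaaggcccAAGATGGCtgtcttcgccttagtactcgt
MRPS18A: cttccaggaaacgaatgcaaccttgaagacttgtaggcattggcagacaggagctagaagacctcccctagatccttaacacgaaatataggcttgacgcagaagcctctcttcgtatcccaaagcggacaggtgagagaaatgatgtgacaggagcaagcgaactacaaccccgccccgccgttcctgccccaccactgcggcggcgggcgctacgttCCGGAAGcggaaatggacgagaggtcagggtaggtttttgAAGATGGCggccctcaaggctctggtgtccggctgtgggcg
MRPL52: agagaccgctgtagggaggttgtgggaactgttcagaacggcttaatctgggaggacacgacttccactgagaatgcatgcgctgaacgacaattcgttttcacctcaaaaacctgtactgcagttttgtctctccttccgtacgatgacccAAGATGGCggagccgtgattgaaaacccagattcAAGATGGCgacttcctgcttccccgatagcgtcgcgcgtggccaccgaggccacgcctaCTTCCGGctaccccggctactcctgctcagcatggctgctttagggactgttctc
The promoter of MRPL30, at chr2:99180934-99181233 on the plus strand, held the ETS motif together with GCGCCTGCGC, a match on the other strand to the motif bound by NRF1 with the sixth base free. MRPL48, at chr11:73787624-73787923 on the plus strand, held the ETS motif alone.
MRPL30: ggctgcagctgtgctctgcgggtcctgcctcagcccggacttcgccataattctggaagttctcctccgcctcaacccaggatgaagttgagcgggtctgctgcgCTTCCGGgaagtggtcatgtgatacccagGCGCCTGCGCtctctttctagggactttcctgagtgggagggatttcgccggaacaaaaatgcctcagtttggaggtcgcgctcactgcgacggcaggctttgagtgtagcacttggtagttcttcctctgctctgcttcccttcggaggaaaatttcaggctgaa
MRPL48: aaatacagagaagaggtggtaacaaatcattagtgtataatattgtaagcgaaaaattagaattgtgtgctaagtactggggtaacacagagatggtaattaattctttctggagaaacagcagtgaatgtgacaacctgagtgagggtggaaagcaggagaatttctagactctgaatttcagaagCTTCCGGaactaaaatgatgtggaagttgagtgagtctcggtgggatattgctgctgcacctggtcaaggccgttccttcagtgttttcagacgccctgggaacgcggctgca
No searched motif was found in the promoters of MRPS6, at chr21:34073328-34073627, and MRPL34, at chr19:17292323-17292622, both on the plus strand, which are the members of more than 5 CPM with the largest falls in C4-2 ARv7 cells.
MRPS6: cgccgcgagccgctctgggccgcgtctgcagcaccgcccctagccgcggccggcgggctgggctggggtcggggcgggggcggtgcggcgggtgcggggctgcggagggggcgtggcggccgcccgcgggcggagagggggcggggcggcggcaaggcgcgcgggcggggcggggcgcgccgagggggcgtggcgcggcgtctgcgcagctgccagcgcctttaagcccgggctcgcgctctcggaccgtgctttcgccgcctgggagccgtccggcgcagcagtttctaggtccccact
MRPL34: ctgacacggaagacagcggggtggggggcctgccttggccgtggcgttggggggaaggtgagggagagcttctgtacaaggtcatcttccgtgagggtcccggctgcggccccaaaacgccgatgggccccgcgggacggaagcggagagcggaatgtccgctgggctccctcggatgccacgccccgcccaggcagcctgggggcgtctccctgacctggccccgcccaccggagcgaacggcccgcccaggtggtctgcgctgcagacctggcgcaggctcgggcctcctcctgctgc

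The other motifs searched were less common among members than the ETS and YY1 motifs. The full NRF1 palindrome, GCGC then AT then GCGC, was found in 1 member, MRPL17, or 1.45%, against 1.73% of the table's genes. With the sixth base free, which includes the palindrome, it was found in 8 members, 11.6%, against 8.58% of the table's genes and 5.78% of all promoters. CACGTG, the E-box bound by MYC among others, was found in 6 members, 8.70%, against 8.91%. TATAAA was found in 2 members, MRPL54 and MRPS15, 2.90%, against 9.57%. The median GC content was 60.3% in the members' promoters and 63.0% in those of the table's genes. CCGGAAG and AAGATGGC can overlap in letters, and a match describes letters in a window, not a bound site. Members also stood close to other genes: 17 of 78, 21.8%, had a divergent protein-coding neighbour starting within 1000 bases, against 7.39% of the table's genes.

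The libraries held between 12318529 and 14672948 counted reads, of which 52648 to 65459 fell on members. The androgen receptor gene, whose variants a gene-level count cannot separate, stood at 579 to 618 CPM in 22Rv-1 shARv7 libraries and 973 to 1009 CPM in 22Rv-1 control libraries, and at 776 to 814 CPM in C4-2 ARv7 libraries and 459 to 498 CPM in C4-2 control libraries. CPM are counts made comparable between libraries by their totals and TMM factors over the 12 libraries. All 9 prostate epithelial markers examined had counts in every group. They summed to 3586 to 3628 CPM in 22Rv-1 shARv7 and 3974 to 4024 CPM in 22Rv-1 control libraries. In C4-2 they summed to 7794 to 7960 CPM with ARv7 and 4258 to 4603 CPM in the control. The 10 proliferation markers examined summed to 1126 to 1155 CPM in 22Rv-1 shARv7, 1573 to 1591 CPM in 22Rv-1 control, 655 to 670.1 CPM in C4-2 ARv7 and 177 to 191 CPM in C4-2 control libraries. The 10 markers of other cell types summed to 21.9 to 24.4 CPM in 22Rv-1 shARv7 (8 with a count, CD3E and CDH5 at 0), and to 19.0 to 20.6 CPM in 22Rv-1 control (7 with a count, CD3E, CD68 and CDH5 at 0). They summed to 23.4 to 26.5 CPM in C4-2 ARv7 (7 with a count, CD3E, CD68 and PECAM1 at 0), and to 12 to 14.4 CPM in C4-2 control (8 with a count, CDH5 and DCN at 0). These marker sums thus all moved with the groups, and their part in the members' results was not tested. C4-2 control replicate 3 stood apart from its group, where the chi-square of its counts, divided by the degrees of freedom, came to 12.3 and 6.85 against the other libraries of that group, and to between 2.1 and 4.64 for every other pair of replicates.

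Most members lay within a moderate range of levels per length. FPKM, the authors' read counts scaled to gene length and library total, allow genes to be set beside each other. Over the 12 libraries the members had a median of 18.3 FPKM with quartiles of 8.48 and 29.2, and 59 of 78 lay between 5 and 50 FPKM. Large and small subunit members had medians of 18.6 and 18.1 FPKM. Within the small subunit, members without a bacterial counterpart had a median of 29.3 FPKM and those with one 9.46 FPKM. The order of the members was close between groups of a line, with a Spearman coefficient over 78 genes of 0.987 in 22Rv-1 and 0.977 in C4-2, and less so across lines, at 0.861 to 0.883. These coefficients are descriptions, since the same gene lengths enter both sides.

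MRPL41, a large subunit protein without a bacterial counterpart, had the highest mean, 151 FPKM. It measured 87.9, 75.5 and 83 FPKM in 22Rv-1 shARv7, 86.2, 77.6 and 70.2 FPKM in 22Rv-1 control, 203, 215 and 195 FPKM in C4-2 ARv7 and 221, 231 and 264 FPKM in C4-2 control libraries. Every C4-2 library lay above every 22Rv-1 library. MRPL24, the counterpart of a bacterial large subunit assembly protein, followed with 96.9 FPKM and went the other way, at 119.7 ± 2.5 FPKM in 22Rv-1 shARv7, 110.3 ± 6.72 in 22Rv-1 control, 82.2 ± 1.31 in C4-2 ARv7 and 75.2 ± 3.01 in C4-2 control (mean ± SD, n = 3 each). The small subunit members MRPS26, MRPS35 and MRPS21 came next, with means of 83.3, 77.2 and 69.3 FPKM. In 22Rv-1 control cells MRPS21 and MRPS26 lay within 1 SD of each other, at 73 ± 4.47 and 69.5 ± 5.57 FPKM, so their order there is not firm.

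At the low end, 6 members had a mean under 1 FPKM. MRPL53 was listed with 0 reads in all 12 libraries. MRPS24 had 5, 6 and 4 reads in 22Rv-1 shARv7, 7, 7 and 2 in 22Rv-1 control, 6, 2 and 6 in C4-2 ARv7 and 2, 5 and 7 in C4-2 control libraries. MRPL2, which encodes a core protein of the large subunit near the site of peptide bond formation, had 3 to 17 reads per library. MRPS18C and MRPL46 averaged 0.385 and 0.607 FPKM, and MRPS28 0.829 FPKM. Several of the lowest members share exon sequence with another gene in the GENCODE 29 annotation. The shared part was 45.2% of exon bases for MRPL53 (with CCDC142), 40.2% for MRPS18C (with ABRAXAS1) and 35.8% for MRPS28 (with AC036214.3), and it was 68.2% for MRPL12, which averaged 2.19 FPKM. MRPS24 shared 23.2% (with URGCP-MRPS24), MRPL2 14.7% (with KLC4) and MRPL46 11.3% (with AC013489.1). The sources used here do not say how reads over such bases were counted, so the low values of all these members are uncertain. Among all members 44 shared no exon base with another protein-coding gene, and 34 had at least 1 processed pseudogene named after them.

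**Figure D1:**
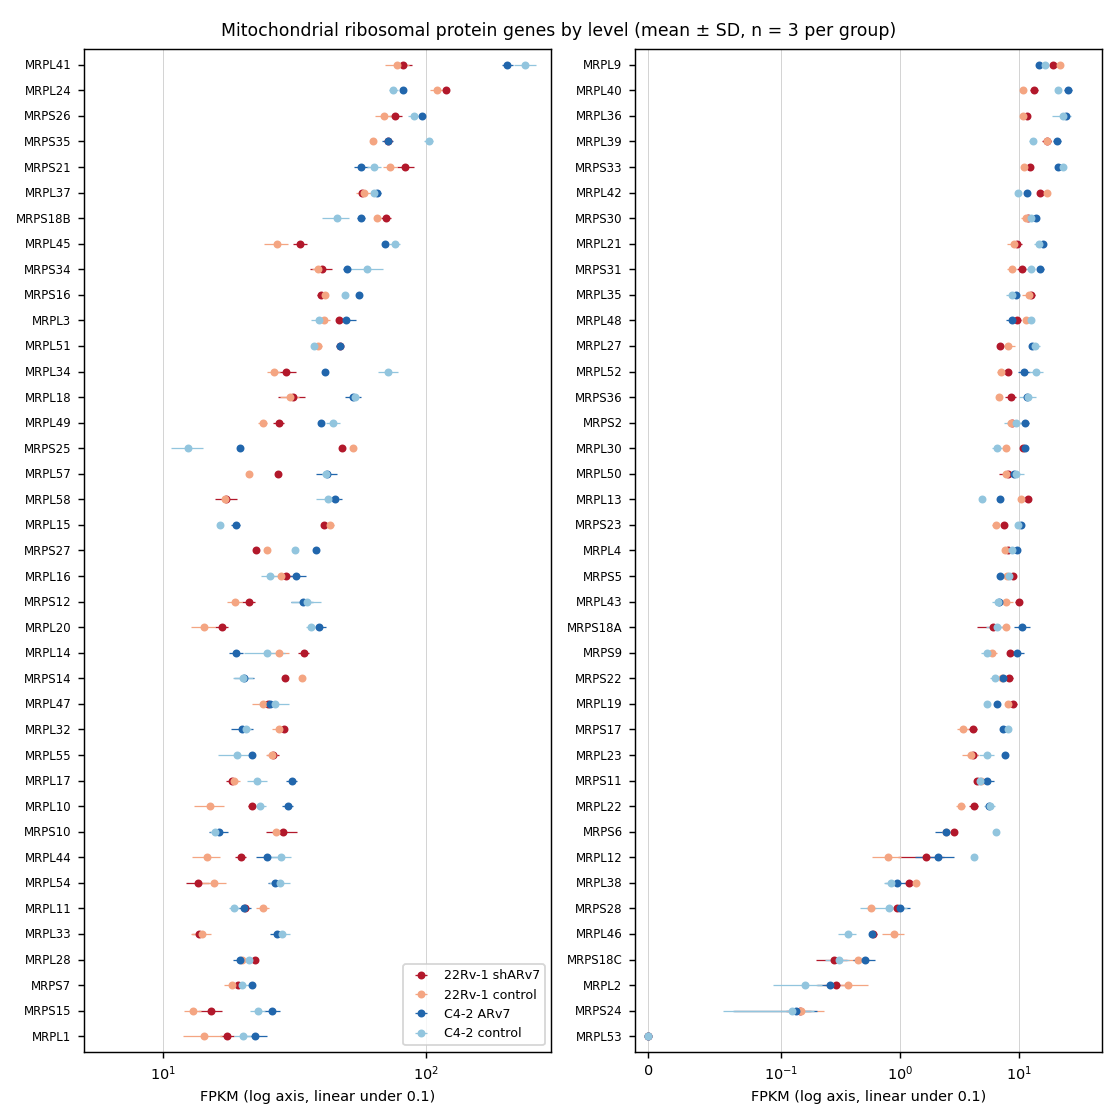
Mean FPKM (x axis, logarithmic, linear under 0.1) of the 78 members in order of their mean over the 12 libraries, split over 2 panels with separate x ranges. Points are group means and bars are SD over 3 libraries; most members lie between 5 and 50 FPKM, MRPL41 is highest at 150.8 FPKM, and 6 members lie under 1 FPKM.

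As a share of all counted reads, members made up 0.420%, 0.413% and 0.422% in the 22Rv-1 shARv7 libraries, against 0.400%, 0.401% and 0.397% in the 22Rv-1 control libraries. In C4-2 they made up 0.447%, 0.461% and 0.462% with ARv7, against 0.431%, 0.439% and 0.449% in the control. The groups did not overlap in 22Rv-1 and overlapped in C4-2. No TMM factor entered these shares, and no share for other genes was set beside them. Within 22Rv-1 the TMM factors were 1.013, 1.017 and 1.019 in shARv7 libraries and 0.983, 0.983 and 0.986 in control libraries. The part of this shift over all genes in the members' share was not tested. When reads of mitochondrially encoded and cytosolic ribosomal protein genes were left out of the total, the shares were 0.466% to 0.477% in 22Rv-1 shARv7 and 0.445% to 0.451% in 22Rv-1 control, and 0.505% to 0.521% in C4-2 ARv7 and 0.498% to 0.531% in C4-2 control. RNA from pooled cells cannot tell fewer cells with a transcript from less transcript per cell.

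In C4-2 cells, the question was how ARv7 expression altered these genes. Changes ran in both directions and most were small: 11 members rose and 22 fell of 75 tested, and 42 did not pass the test. Calls were made with edgeR's quasi-likelihood test at a Benjamini-Hochberg adjusted p under 0.05 over all genes tested, and the counts are 44.0% of members called in either direction against 59.1% of all genes tested, with 29.6% of genes higher and 29.5% lower. Of the 33 called members 22 changed by less than 0.5 on the log2 scale, and 2 changed at least 2-fold, MRPS6 and MRPL12, against 13.2% of all genes that were called and changed at least 2-fold. The median log2 fold change was -0.04 over the members and 0.01 over all genes tested. The split depended on the scaling: with total counts and no TMM factor 23 members were higher and 11 lower, and the median of all genes moved to 0.15 and that of members to 0.11. Limma on log2(FPKM + 1) gave 22 higher and 12 lower, and leaving out C4-2 ARv7 replicate 3 left 7 higher.

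The largest falls came from both subunits. MRPS6 (ENSG00000243927, chr21:34073224-34143034, plus strand), the counterpart of a bacterial small subunit protein, stood at 10.6, 12.3 and 8.23 CPM in C4-2 ARv7 libraries, against 29.3, 29.2 and 31.5 CPM in C4-2 control libraries. Every ARv7 library lay well below every control library, with a log2 fold change of -1.54 (SE 0.13, edgeR adjusted p = 3.28e-09), 2.9-fold lower. MRPS35 (ENSG00000061794, chr12:27710822-27756295, plus strand), found only in the mitochondrial small subunit, measured 130.3, 144 and 135 CPM in ARv7 libraries, against 217, 216 and 212 CPM in control libraries. The spread within each group was small beside the gap, and the test gave a log2 fold change of -0.67 (SE 0.059, edgeR adjusted p = 1.08e-08). MRPS34, also mitochondria-specific, fell to 54.2 ± 1.96 CPM with ARv7, against 71.4 ± 12.3 CPM in the control, with a log2 fold change of -0.41 (SE 0.096, edgeR adjusted p = 0.00113). MRPS5, the counterpart of a bacterial protein at the messenger RNA entry of the small subunit, fell to 57.8 ± 3.41 CPM, against 75.4 ± 8.18 CPM in the control, with a log2 fold change of -0.39 (SE 0.081, edgeR adjusted p = 3.61e-04).

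Among large subunit members MRPL34 (ENSG00000130312, chr19:17292609-17306843, plus strand), a small core protein with a bacterial counterpart, was at 61.7, 62.9 and 61.8 CPM with ARv7, against 110.1, 113 and 135 CPM in the control. The 3 ARv7 libraries lay close to each other and below all controls, with a log2 fold change of -0.95 (SE 0.077, edgeR adjusted p = 2.50e-09), 1.94-fold lower. MRPL48 (ENSG00000175581, chr11:73787872-73865133, plus strand), a mitochondria-specific protein, was at 33.5, 29.4 and 35.7 CPM with ARv7, against 54.2, 50.3 and 54 CPM in the control, again without overlap, with a log2 fold change of -0.69 (SE 0.087, edgeR adjusted p = 1.18e-06). MRPL14, whose bacterial counterpart lies at the interface with the small subunit, fell to 18 ± 1.1 CPM, against 25.9 ± 5.39 CPM in the control, with a log2 fold change of -0.53 (SE 0.13, edgeR adjusted p = 0.00147). MRPL52, mitochondria-specific, fell to 35.1 ± 4.01 CPM, against 48.7 ± 8.0 CPM in the control, with a log2 fold change of -0.48 (SE 0.11, edgeR adjusted p = 7.01e-04). MRPL12, the counterpart of the bacterial stalk protein that recruits translation factors, had few reads, 41, 18 and 28 with ARv7, against 66, 60 and 60 in the control, with a log2 fold change of -1.15 (adjusted p = 0.00131) by edgeR.

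Rises were led by MRPS9 and MRPL30. MRPS9 (ENSG00000135972, chr2:105038069-105099960, plus strand), whose bacterial counterpart reaches the decoding site of the small subunit, was at 19, 18.8 and 14.9 CPM in C4-2 ARv7 libraries, against 11.6, 10.4 and 9.94 CPM in C4-2 control libraries. No control library reached an ARv7 library, with a log2 fold change of 0.71 (SE 0.13, edgeR adjusted p = 1.48e-04), 1.64-fold higher. MRPL30 (ENSG00000185414, chr2:99181152-99199561, plus strand), a core protein of the large subunit, was at 51, 52.9 and 53.1 CPM with ARv7, against 30.4, 33.4 and 38.7 CPM in the control, with a log2 fold change of 0.61 (SE 0.088, edgeR adjusted p = 7.97e-06). MRPS25 (ENSG00000131368, chr3:15042460-15065317, minus strand), mitochondria-specific and of the small subunit, was at 105, 106 and 102 CPM with ARv7, against 79.7, 74.7 and 63.4 CPM in the control. The ARv7 libraries clustered tightly above the controls, with a log2 fold change of 0.51 (SE 0.077, edgeR adjusted p = 1.42e-05). MRPL39, a mitochondria-specific member related to threonyl-tRNA synthetases, was at 22.8, 26.4 and 25.1 CPM with ARv7, against 15.7, 18 and 17.3 CPM in the control, with a log2 fold change of 0.53 (SE 0.11, edgeR adjusted p = 3.12e-04).

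Smaller rises included core proteins of the large subunit. MRPL13 averaged 28.9 ± 1.42 CPM in C4-2 ARv7 and 22.3 ± 0.780 CPM in C4-2 control libraries, a log2 fold change of 0.36 (adjusted p = 0.00308). MRPL17 averaged 79.8 ± 3.68 CPM with ARv7 and 64.9 ± 6.31 CPM in the control, a log2 fold change of 0.29 (adjusted p = 0.00339). Both have bacterial counterparts, MRPL17 near the mouth of the tunnel through which the new protein leaves. The call of MRPL23, a tunnel-exit protein, was weak: it averaged 22.4 ± 0.132 CPM with ARv7 and 17.6 ± 3.04 CPM in the control, a log2 fold change of 0.35 (adjusted p = 0.0186) by edgeR, and 4 of the 6 fits that left out a library lost it, with adjusted p from 0.0506 to 0.102. MRPL3, a core protein by the peptidyl transferase centre, averaged 134 ± 11 CPM with ARv7 and 115 ± 4.01 CPM in the control, a log2 fold change of 0.20 (adjusted p = 0.0149), lost without ARv7 replicate 2 (adjusted p = 0.106) or replicate 3 (adjusted p = 0.0759).

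By structural class, 6 of 28 tested large subunit members with a bacterial counterpart rose and 9 fell, and 3 of 21 without one rose and 6 fell. In the small subunit 1 of 16 with a bacterial counterpart rose and 4 fell, and 1 of 9 without one rose and 3 fell. Every class thus held calls in both directions, against 29.6% higher and 29.5% lower of all genes tested. With total counts the split turned round in all 4 classes, to 8 higher and 3 lower, 6 and 4, 5 and 2, and 4 and 2 in the same order.

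**Figure D2:**
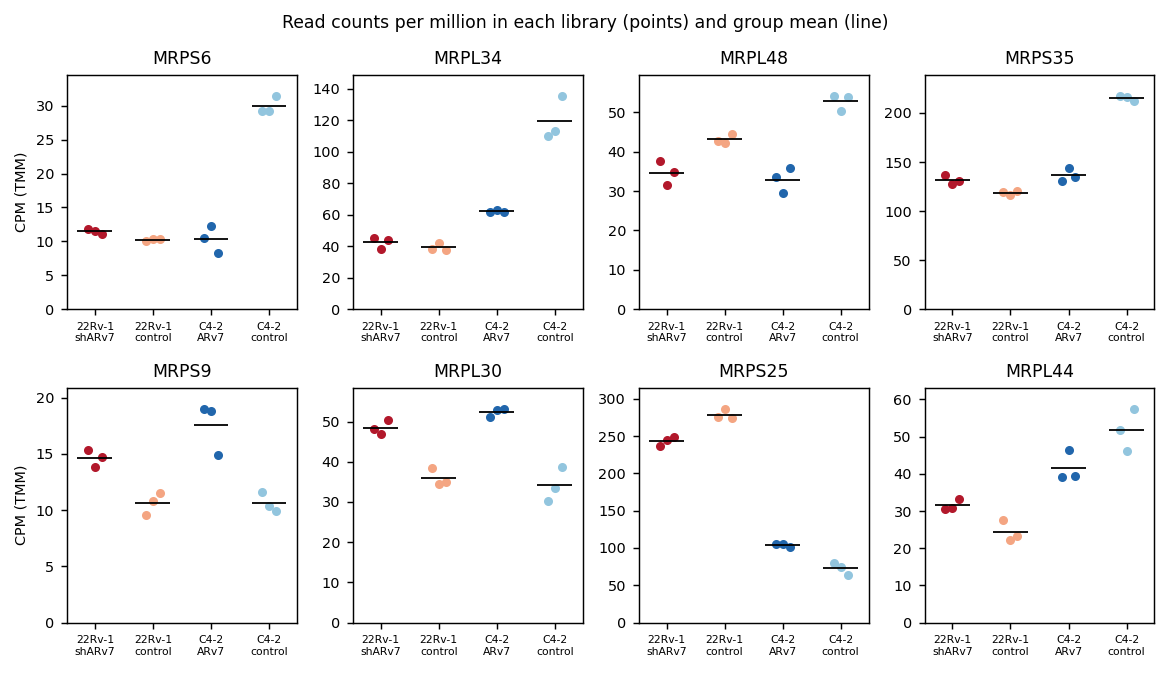
CPM (y axis, from 0) of 8 members in each of the 12 libraries, as points, with the group mean as a line. MRPS6, MRPL34, MRPL48 and MRPS35 are lower in all 3 C4-2 ARv7 libraries than in C4-2 control, MRPS9 and MRPL30 are higher with ARv7 and with shARv7, and MRPS25 and MRPL44 move in opposite directions in the lines.

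In 22Rv-1 cells, the question was how depletion of ARv7 altered the same genes. Most called changes were small: 17 members rose and 10 fell of 76 tested, 35.5% called against 48.0% of all genes tested, with 23.9% of genes higher and 24.1% lower. Of the 27 called members 25 changed by less than 0.5 on the log2 scale, the others being MRPL12 and MRPL46 with few reads. No tested member changed 2-fold, called or not, against 7.65% of all genes that were called and changed at least 2-fold. The median log2 fold change was 0.07 over members and 0.01 over all genes tested. The number of rises moved with the method, at 10 by DESeq2, 27 with total counts (8 lower), 26 by limma on log2(FPKM + 1), and 10 without 22Rv-1 shARv7 replicate 3. Large subunit members, 50 of the 76 tested, supplied 14 of the 17 rises and 7 of the 10 falls.

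MRPL10, which anchors the stalk of the large subunit, was at 56.7, 55.5 and 58.8 CPM in 22Rv-1 shARv7 libraries, against 41.2, 46.6 and 35.7 CPM in 22Rv-1 control libraries. The groups did not overlap, with a log2 fold change of 0.48 (SE 0.078, edgeR adjusted p = 2.77e-07), 1.39-fold higher. MRPS9 was at 15.4, 13.8 and 14.7 CPM with the hairpin, against 9.52, 10.8 and 11.5 CPM in the control, with a log2 fold change of 0.47 (SE 0.13, edgeR adjusted p = 0.00169). MRPL30 was at 48.2, 46.9 and 50.3 CPM with the hairpin, against 38.4, 34.4 and 34.9 CPM in the control, with a log2 fold change of 0.44 (SE 0.079, edgeR adjusted p = 2.63e-06). Both of these had also risen with ARv7 in C4-2 cells. MRPL44 (ENSG00000135900, chr2:223957463-223967714, plus strand), a large subunit protein with a ribonuclease III fold, was at 30.5, 30.8 and 33.3 CPM with the hairpin, against 27.7, 22.1 and 23.2 CPM in the control, with a log2 fold change of 0.38 (SE 0.094, edgeR adjusted p = 4.74e-04). MRPL57, a small mitochondria-specific protein of the large subunit, was at 57.8, 58.7 and 57.8 CPM with the hairpin, against 47.3, 45.4 and 46.3 CPM in the control, a tight and complete separation, with a log2 fold change of 0.33 (SE 0.072, edgeR adjusted p = 7.86e-05).

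Further rises were less firm. MRPL43 averaged 33.7 ± 2.39 CPM in 22Rv-1 shARv7 and 27.1 ± 3.9 CPM in 22Rv-1 control libraries, a log2 fold change of 0.32 (adjusted p = 0.00281) by edgeR, lost without control replicate 3 (adjusted p = 0.0517). MRPL22, which lines the exit tunnel, averaged 20.7 ± 2.01 CPM with the hairpin and 16.8 ± 1.34 CPM in the control, a log2 fold change of 0.30 (adjusted p = 0.0155). That call was lost with DESeq2 (adjusted p = 0.0627), without control replicate 2 (adjusted p = 0.102) and without shARv7 replicate 1 (adjusted p = 0.134). MRPL14 averaged 31.1 ± 1.38 CPM with the hairpin and 25.8 ± 2.53 CPM in the control, a log2 fold change of 0.27 (adjusted p = 0.0102), lost without control replicate 3 (adjusted p = 0.0838) or shARv7 replicate 3 (adjusted p = 0.0641).

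Most falls in 22Rv-1 were modest. The largest called fall was that of MRPL46, a large subunit protein with few reads, 53, 45 and 54 in 22Rv-1 shARv7 libraries, against 77, 62 and 103 in 22Rv-1 control libraries, with a log2 fold change of -0.63 (adjusted p = 0.0104) by edgeR. MRPS18A followed with -0.39 (adjusted p = 0.0324), and its groups overlapped. MRPL48 was at 37.6, 31.6 and 34.9 CPM in 22Rv-1 shARv7 libraries, against 42.7, 42.2 and 44.5 CPM in 22Rv-1 control libraries, without overlap, with a log2 fold change of -0.31 (SE 0.082, edgeR adjusted p = 0.00105). MRPL11, whose bacterial counterpart belongs to the site where translation factors bind, was at 48.2, 49.3 and 50.8 CPM with the hairpin, against 62.1, 61.1 and 55.6 CPM in the control, with a log2 fold change of -0.26 (SE 0.072, edgeR adjusted p = 0.00143). MRPS14, a small subunit core protein, was at 72.4, 70 and 72.7 CPM with the hairpin, against 85.4, 84 and 88 CPM in the control, with a log2 fold change of -0.25 (SE 0.063, edgeR adjusted p = 4.47e-04). All 3 hairpin libraries of each of these genes were below all 3 controls. MRPL42, one of the members with the most reads, was at 232, 232 and 238 CPM with the hairpin, against 265, 273 and 289.5 CPM in the control, with a log2 fold change of -0.23 (SE 0.048, edgeR adjusted p = 3.55e-05). MRPS25 was at 237, 245 and 249 CPM with the hairpin, against 276, 286 and 274 CPM in the control, with a log2 fold change of -0.19 (SE 0.048, edgeR adjusted p = 6.26e-04). MRPS27, a protein of the pentatricopeptide repeat family in the small subunit, averaged 139 ± 2.25 CPM with the hairpin and 158 ± 3.52 CPM in the control, a log2 fold change of -0.18 (adjusted p = 0.00336). MRPL9 averaged 31.7 ± 1.35 CPM with the hairpin and 37.8 ± 0.474 CPM in the control, a log2 fold change of -0.25 (adjusted p = 0.00963). MRPL27, whose bacterial counterpart reaches into the peptidyl transferase centre, averaged 19.7 ± 0.987 CPM with the hairpin and 24 ± 3.17 CPM in the control, a log2 fold change of -0.28 (adjusted p = 0.0206) by edgeR. The call of MRPL27 was lost in 6 alternatives, with adjusted p from 0.0575 with total counts to 0.219 without control replicate 2.

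Set side by side, the lines share no library, and 75 members were tested in both. Of these 32, 42.7%, were called in neither line, against 23.3% of all genes tested in both. Calls in opposite directions numbered 2 for higher with ARv7 in C4-2 and lower with shARv7 in 22Rv-1 (MRPS25 and MRPS18A), 2.67% against 9.43% of all genes. They numbered 7 for lower in C4-2 ARv7 and higher in 22Rv-1 shARv7 (MRPL12, MRPL14, MRPL44, MRPL45, MRPL49, MRPS21 and MRPS35), 9.33% against 7.12% of all genes. Another 5 members were higher in both (MRPS9, MRPL30, MRPL10, MRPL3 and MRPL51), 6.67% against 6.99% of all genes, and 3 were lower in both (MRPL48, MRPL9 and MRPL27), 4.0% against 7.14%. ARv7 was raised in one line and depleted in the other, so a change in the same direction in both lines does not follow the level of ARv7. These joint counts come from the TMM fits alone, and the members' split in C4-2 turned round with total counts.

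**Figure D3:**
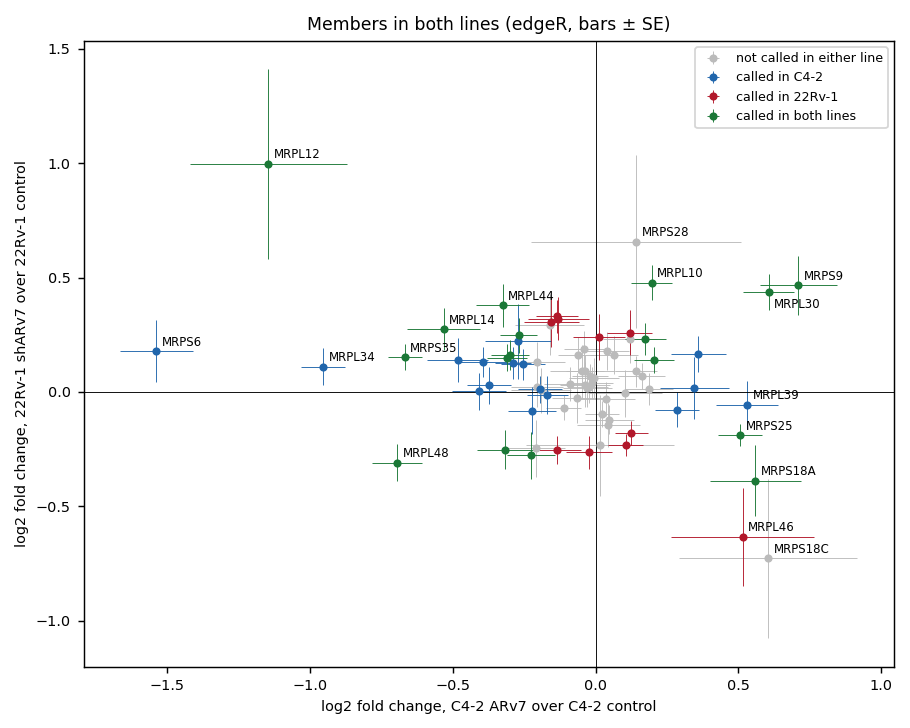
Log2 fold change of each of the 75 members tested in both lines, C4-2 ARv7 over C4-2 control on the x axis and 22Rv-1 shARv7 over 22Rv-1 control on the y axis, with bars of ± SE from edgeR and colours for the lines in which a member was called. Most members lie near 0 in both lines; MRPS6 and MRPL34 lie far to the left, MRPL12, with few reads, to the upper left, MRPS9 and MRPL30 to the upper right, MRPL48 to the lower left and MRPS25 to the lower right.

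The difference of the responses, the C4-2 ARv7 effect minus the 22Rv-1 shARv7 effect, was tested over all 12 libraries. Since ARv7 was raised in one line and depleted in the other, a gene that follows its level alike in both also gives a difference. The difference was positive for 9 members and negative for 23 of 76, 42.1% called against 50.2% of all genes, with 25.1% in each direction. With total counts the split was 13 and 17, and without C4-2 control replicate 3 the number of positive differences was 14. MRPS35 differed most firmly, by -0.81 (adjusted p = 7.16e-11) on the log2 scale by edgeR. Its 22Rv-1 values were 137, 128 and 131 CPM with the hairpin, against 119.8, 116 and 120.2 CPM in the control, so a fall with ARv7 in C4-2 stood beside a rise with depletion in 22Rv-1. MRPS6 differed by -1.70 (adjusted p = 4.52e-10) and MRPL34 by -1.05 (adjusted p = 6.23e-10), with 22Rv-1 log2 fold changes of 0.18 (adjusted p = 0.284) for MRPS6 and 0.11 (adjusted p = 0.263) for MRPL34, which did not pass the test. MRPS25 differed by 0.71 (adjusted p = 1.35e-08). MRPL44 differed by -0.69 (adjusted p = 5.69e-05): in C4-2 it was at 39, 46.3 and 39.4 CPM with ARv7, against 51.7, 46.1 and 57.4 CPM in the control, so the groups overlapped. MRPL49 differed by -0.45 (adjusted p = 8.57e-05), with 80.6 ± 3.57 CPM in 22Rv-1 shARv7, 72.3 ± 2.49 in 22Rv-1 control, 122 ± 1.52 in C4-2 ARv7 and 149 ± 12.5 in C4-2 control.

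Of the other members with opposite calls, MRPL14 differed by -0.79 (adjusted p = 8.63e-05), MRPL45 by -0.50 (adjusted p = 9.20e-05) and MRPS21 by -0.45 (adjusted p = 1.85e-04) in edgeR. Opposite calls in the same libraries make a called difference likely beforehand. The adjusted p of members picked this way, MRPL12 and MRPS18A included, are thus no separate support. MRPL45, which binds the ribosome to the inner membrane at the tunnel exit, averaged 53.6 ± 3.0 CPM in 22Rv-1 shARv7, 45.3 ± 4.82 in 22Rv-1 control, 118 ± 1.85 in C4-2 ARv7 and 141 ± 10.7 in C4-2 control. MRPL12 differed by -2.13 (adjusted p = 5.80e-04) on few reads, 27, 11 and 29 in 22Rv-1 shARv7, against 15, 10 and 9 in 22Rv-1 control, which overlap. MRPS18A differed by 0.96 (adjusted p = 9.18e-04). It was at 5.8, 10.1 and 8.08 CPM in 22Rv-1 shARv7, against 11.3, 10.3 and 9.82 CPM in 22Rv-1 control, and at 14.9, 16.7 and 12.2 CPM in C4-2 ARv7, against 8.44, 8.84 and 12.3 CPM in C4-2 control. Its groups overlapped in both lines. For members called in the same direction in both lines, the difference passed for MRPL48, at -0.37 (adjusted p = 0.0101), and MRPL10, at -0.27 (adjusted p = 0.0456), and did not for MRPS9, at 0.26 (adjusted p = 0.255), MRPL30, at 0.18 (adjusted p = 0.201), MRPL3, MRPL51, MRPL9 or MRPL27.

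More members were called between the lines than within them. Between the control groups, 17 members were higher and 45 lower in 22Rv-1 than in C4-2 of 76 tested, 81.6% called against 83.4% of all genes, with 42.5% of genes higher and 40.9% lower. Of these, 20 members differed at least 2-fold, against 44.8% of all genes. The median log2 fold change was -0.33 over members, against 0.03 over all genes tested, and with total counts it was -0.18 over members, against 0.18 over all genes. This comparison shares its control libraries with the comparisons within each line.

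MRPS25 was highest in 22Rv-1 relative to C4-2, at 276, 286 and 274 CPM in 22Rv-1 control, against 79.7, 74.7 and 63.4 CPM in C4-2 control, with a log2 fold change of 1.94 (SE 0.064, edgeR adjusted p = 5.50e-26), 3.83-fold higher. MRPL15, a core protein of the large subunit, was at 73.1, 74.7 and 77.3 CPM in 22Rv-1 control, against 31.2, 32.3 and 32.2 CPM in C4-2 control, with a log2 fold change of 1.23 (SE 0.073, edgeR adjusted p = 5.51e-18). The 2 sets of libraries were far apart for both genes. MRPL13 followed with a log2 fold change of 0.93 (adjusted p = 2.88e-12), then MRPL42 with 0.66 (adjusted p = 1.69e-13) and MRPS10 with 0.63 (adjusted p = 2.66e-08), all by edgeR. On the other side MRPL41 was at 49.3, 44.3 and 39.9 CPM in 22Rv-1 control, against 136, 145 and 173 CPM in C4-2 control, with a log2 fold change of -1.77 (SE 0.081, edgeR adjusted p = 2.57e-21), 3.4-fold lower. MRPL45 was at 48.9, 47.1 and 39.8 CPM in 22Rv-1 control, against 133, 137 and 153 CPM in C4-2 control, with a log2 fold change of -1.64 (SE 0.073, edgeR adjusted p = 9.01e-22). Here too no library of one line came near the other line. MRPL34 had a log2 fold change of -1.60 (adjusted p = 2.71e-20), MRPS6 of -1.55 (adjusted p = 2.66e-14) and MRPL20, a counterpart of a bacterial assembly protein, of -1.50 (adjusted p = 8.52e-20). For MRPS6 the C4-2 ARv7 libraries, at 10.6, 12.3 and 8.23 CPM, lay among the 22Rv-1 libraries, at 11.9, 11.6 and 11.1 CPM with the hairpin and 10, 10.4 and 10.3 CPM in the control, so C4-2 control stood alone as the high group.

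Some of the members that moved most share exon bases with a neighbour that moved alike, and other named members with one that moved the opposite way. In 22Rv-1 MRPS14 changed by -0.25, and CACYBP, with which it shares 13.5%, by 0.34 (edgeR adjusted p = 4.43e-07). MRPL11 changed there by -0.26, and PELI3, with which it shares 4.69%, by 0.23 (edgeR adjusted p = 0.0410). MRPS25 shares 22.2% of its exon bases with NR2C2, a nuclear receptor gene on the opposite strand. NR2C2 averaged 369 ± 4.68 CPM in 22Rv-1 shARv7, 414 ± 19.8 in 22Rv-1 control, 154 ± 2.84 in C4-2 ARv7 and 112 ± 9.46 in C4-2 control. Its log2 fold changes by edgeR were 0.45 (adjusted p = 1.15e-05) in C4-2, -0.16 (adjusted p = 0.00228) in 22Rv-1 and 1.89 (adjusted p = 8.60e-27) between the control groups, against 0.51, -0.19 and 1.94 for MRPS25. MRPS6 shares 6.35% of its exon bases with SLC5A3, a myo-inositol transporter gene on the same strand. SLC5A3 averaged 38.6 ± 1.98 CPM in 22Rv-1 shARv7, 32.3 ± 1.14 in 22Rv-1 control, 41.7 ± 1.33 in C4-2 ARv7 and 122 ± 6.01 in C4-2 control. Its log2 fold changes were -1.56 (adjusted p = 3.05e-13), 0.26 (adjusted p = 0.00722) and -1.92 (adjusted p = 4.39e-24) in the same order, against -1.54, 0.18 and -1.55 for MRPS6.

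MRPL34 shares 13.2% with ABHD8 on the opposite strand, whose log2 fold changes by edgeR were -0.55 (adjusted p = 4.61e-04) in C4-2 and -1.46 (adjusted p = 2.80e-11) between the control groups. MRPL49 shares 12.2% with other genes including FAU, which encodes a cytosolic ribosomal protein, and FAU changed by -0.53 (adjusted p = 7.59e-05) in C4-2 and 0.31 (adjusted p = 8.34e-04) in 22Rv-1. SYVN1, another of these neighbours, had -0.06 (adjusted p = 0.455) in C4-2 and 0.05 (adjusted p = 0.599) in 22Rv-1, neither called. MRPL43 shares 36.9% with SEMA4G and TWNK. In 22Rv-1 MRPL43 changed by 0.32, SEMA4G by 0.54 (edgeR adjusted p = 0.00107) and TWNK by 0.18 (adjusted p = 0.0148). In C4-2 MRPL43 and SEMA4G were not called, and TWNK changed by 0.37 (adjusted p = 3.91e-04). MRPL51 shares 31.3% with NCAPD2 and changed by 0.17 in C4-2 and 0.23 in 22Rv-1. NCAPD2 changed by 0.64 (adjusted p = 7.84e-07) and 0.05 (adjusted p = 0.423) in that order. MRPS18A shares 47% with RSPH9, which was not tested in C4-2 and had 0.90 (adjusted p = 0.111) in 22Rv-1, not called and opposite in sign to MRPS18A, at 1.09 ± 0.187 CPM in 22Rv-1 shARv7 and 0.58 ± 0.297 CPM in 22Rv-1 control. The sources used here do not give the strand of the libraries, so reads of such pairs cannot be told apart, and the part of shared reads in these results was not tested. MRPS35, MRPL48, MRPL52 and MRPL41 share no exon base with another gene in that annotation.

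The other genes of mitochondrial translation were described by the same fits. A list of 6 genes was made for mitochondrial ribosomal proteins with other symbols, but it also held the insertase OXA1L. Of the 6, 2 rose and 1 fell in C4-2 and 1 fell in 22Rv-1. PTCD3, a pentatricopeptide repeat protein of the small subunit, averaged 113 ± 3.05 CPM in C4-2 ARv7 and 81.5 ± 4.41 CPM in C4-2 control, a log2 fold change of 0.47 (adjusted p = 5.38e-06), and in 22Rv-1 it changed by -0.15 (adjusted p = 0.0164). AURKAIP1, another small subunit protein, fell in C4-2 with a log2 fold change of -0.43 (adjusted p = 6.05e-05). OXA1L, the insertase that takes new proteins into the inner membrane, rose with a log2 fold change of 0.26 (adjusted p = 0.0011).

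Assembly and rRNA modification factors went both ways, with 6 of 28 higher and 8 lower in C4-2, and 6 higher and 6 lower in 22Rv-1. With total counts the C4-2 counts were 13 and 6. GTPBP10, a GTPase of large subunit assembly, fell in both lines, with log2 fold changes of -0.48 (adjusted p = 1.59e-06) in C4-2 and -0.38 (adjusted p = 1.04e-06) in 22Rv-1. The 8 lower in C4-2 include DDX3X, an RNA helicase that acts mainly outside mitochondria, at -0.57 (adjusted p = 1.71e-07) by edgeR. NGRN changed by -0.70 (adjusted p = 2.06e-06) on the same scale in C4-2. There TFB1M, the methyltransferase of the small rRNA, changed by 0.68 (adjusted p = 9.11e-04). MRM1, a methyltransferase of the large rRNA, changed by 0.68 (adjusted p = 2.58e-04) in C4-2. In 22Rv-1 FASTKD5 rose by 0.42 (adjusted p = 6.49e-05) and NOA1 by 0.32 (adjusted p = 9.19e-05), and NSUN4 changed by -0.32 (adjusted p = 1.56e-04).

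Translation factors gave 3 of 14 higher and 3 lower in C4-2 and 1 higher in 22Rv-1. GFM2, which recycles the ribosome, averaged 71.6 ± 0.574 CPM in C4-2 ARv7 and 42 ± 0.821 CPM in C4-2 control, a log2 fold change of 0.76 (adjusted p = 2.44e-08). The initiation factor gene MTIF2 rose by 0.44 (adjusted p = 6.91e-05) and GUF1 by 0.56 (adjusted p = 4.56e-05). TUFM, the elongation factor that delivers tRNA, changed by -0.25 (adjusted p = 0.00304) in C4-2 and 0.22 (adjusted p = 1.70e-04) in 22Rv-1, and with total counts 5 translation factors were called in C4-2, all higher. Of 20 genes for mitochondrial aminoacyl-tRNA synthetases and charging enzymes, 9 rose and 1 fell in C4-2, and 2 rose and 4 fell in 22Rv-1, with medians of 0.16 and -0.09. EARS2 and TARS2 rose in C4-2 by 0.39 (adjusted p = 7.65e-05) and 0.44 (adjusted p = 1.01e-04). QRSL1, a subunit of the enzyme that makes glutaminyl-tRNA, changed by -0.49 (adjusted p = 1.46e-06) in 22Rv-1 and LARS2 by -0.27 (adjusted p = 3.49e-04).

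Genes of mitochondrial DNA maintenance and transcription had 6 of 19 higher and 3 lower in C4-2, and 8 higher and 1 lower in 22Rv-1, against 29.6% higher and 29.5% lower of all genes in C4-2 and 23.9% and 24.1% in 22Rv-1. With total counts the C4-2 counts were 12 and 1. TFB2M, which opens the promoter for the mitochondrial RNA polymerase, rose by 0.50 (adjusted p = 4.51e-05) in C4-2 and 0.54 (adjusted p = 2.32e-11) in 22Rv-1. SSBP1, the single-stranded DNA binding protein, rose by 0.63 (adjusted p = 2.16e-07) in C4-2, while POLRMT, the RNA polymerase, changed by -0.47 (adjusted p = 5.56e-05). In 22Rv-1 MTERF2 rose by 0.67 (adjusted p = 2.93e-08) and TRMT10C by 0.40 (adjusted p = 1.10e-06), and POLG, the DNA polymerase, changed by -0.23 (adjusted p = 0.00101). Among regulators of such programmes, MYC rose in both lines, by 0.39 (adjusted p = 1.39e-05) in C4-2 and 0.24 (adjusted p = 1.59e-05) in 22Rv-1. In C4-2 YY1 changed by -0.28 (adjusted p = 6.86e-04) and NRF1 by -0.41 (adjusted p = 0.00161), and in 22Rv-1 PPARGC1B changed by -0.44 (adjusted p = 2.32e-07) and PPRC1 by -0.33 (adjusted p = 5.05e-06). PPARGC1A rose in C4-2 by 1.45 (edgeR adjusted p = 0.0123) at a low level. It averaged 1.11 ± 0.290 CPM in C4-2 ARv7 and 0.40 ± 0.0948 CPM in C4-2 control.

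The messages that this ribosome translates were lower in both comparisons. Of 13 mitochondrially encoded protein genes, 12 fell in C4-2, with a median log2 fold change of -0.60, and 9 fell and 1 rose in 22Rv-1, with a median of -0.20. With total counts 10 of them were lower in C4-2 and 9 in 22Rv-1. MT-ND2, a subunit of complex I, changed by -0.88 (adjusted p = 9.14e-10) in C4-2, and MT-CYB, of complex III, by -0.61 (adjusted p = 1.19e-23) in 22Rv-1, against which MT-ND6 rose by 0.26 (adjusted p = 1.19e-06). MT-ND6 lies on the other strand from the rest, where reads of opposite strands cannot be told apart. The cytosolic ribosomal protein genes moved largely one way in each line, with 70 of 85 lower and 5 higher in C4-2 (median -0.45), and 59 of 85 higher in 22Rv-1 (median 0.15), the other 26 not called. With total counts the cytosolic genes kept these directions, with 65 lower and 7 higher in C4-2 and 66 higher in 22Rv-1. The members went both ways, with 29.3% lower and 14.7% higher in C4-2 and 22.4% higher and 13.2% lower in 22Rv-1, and the difference between the 2 gene families was not tested.

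**Figure D4:**
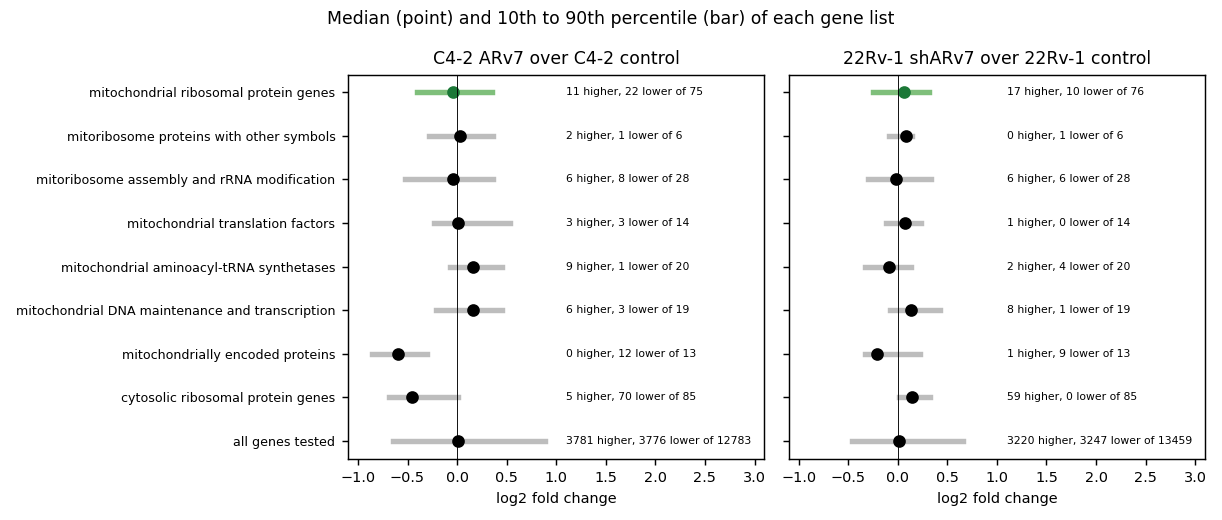
Median log2 fold change (point) and 10th to 90th percentile (bar) of the members, of other lists of mitochondrial gene expression, of cytosolic ribosomal protein genes and of all genes tested, for C4-2 ARv7 over C4-2 control and 22Rv-1 shARv7 over 22Rv-1 control, with the counts of calls. Mitochondrially encoded proteins lie below 0 in both panels and cytosolic ribosomal protein genes on opposite sides, while the members lie close to 0; with total counts the members' C4-2 median is 0.11.

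Calls went both ways among members with and without each promoter motif. Of all genes tested, 29.6% were higher and 29.5% lower in C4-2, and 23.9% and 24.1% in 22Rv-1, without regard to motif. The counts by motif come from the TMM fits alone, and the members' split in C4-2 turned round with total counts. In C4-2, 4 of 28 tested members with the ETS motif rose and 8 fell, and 4 of 39 without it rose and 14 fell, with median log2 fold changes of -0.06 and -0.05. Of those with the YY1 motif 2 of 19 rose and 3 fell, and of those without it 6 of 48 rose and 19 fell. In 22Rv-1, 6 of 28 with the ETS motif rose and 3 fell, and 10 of 39 without it rose and 7 fell, with medians of 0.11 and 0.06. Of those with the YY1 motif 3 of 19 rose and 4 fell, and of those without it 13 of 48 rose and 6 fell. The MRPL51, MRPS18A and MRPL52 promoters, alike in holding both motifs, belonged to genes that were higher in both lines, opposite between lines, and lower in C4-2 with no call in 22Rv-1.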

How the data were processed

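RNA from 12 dishes in 4 groups of 3 was sequenced. Per the labels, reads were trimmed with Cutadapt 2.7 and the build is hg18; the table's positions are those of GRCh38 (78 of 78 members were found in GENCODE 29, 60 with start or end the same) and are printed as deposited. The sources used here do not give the aligner, counter or strand. The authors deposited raw read counts per gene, FPKM, which they scaled to gene length and library total, and gene length in bases. Of 19974 lines, 1 broken line was left out.

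Counts were tested with edgeR 4.0.16 (filterByExpr, TMM, glmQLFit, glmQLFTest, Benjamini-Hochberg over all genes tested), each line on its own, and with all 12 libraries for the control groups and for the difference of responses. This tested 75 members in C4-2 and 76 elsewhere; MRPL53 and MRPS24 were never tested and MRPL2 was not tested in C4-2. A member thus passed the filter only with enough counts. CPM use TMM factors over 12 libraries. Named members were the 8 largest rises and falls per line (5 between lines) with adjusted p under 0.05, at least 5 CPM and no overlap; for the difference, the 6 smallest adjusted p and every opposite pair of calls; for levels, 5 at each end. Members named outside these rules were chosen after their values were seen. The members, lists, tests and rules were chosen with earlier results of these data known. The pipeline was tested on simulated data. Alternatives were DESeq2 1.42.0, its size factors, total counts, other filters, a replicate block, limma 3.58.1 on log2(FPKM + 1), other sets of libraries and leaving out each library. PCR copies were not told apart.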

Additional observations from a re-analysis of the deposited data

Results flagged for a closer look

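The test of the difference between the responses of the lines (edgeR over all 12 libraries, C4-2 ARv7 effect minus 22Rv-1 shARv7 effect, log2) called 32 of 76 members, 42.1%, against 50.2% of all genes tested. The 11 given here had the smallest adjusted p or calls in opposite directions in the lines. Opposite calls in the same libraries make a called difference likely beforehand, so for members picked that way it is no separate support. ARv7 was raised in C4-2 and depleted in 22Rv-1, so a gene that follows its level alike in both lines also gives a difference. Negative differences, with the C4-2 ARv7 effect below the 22Rv-1 shARv7 effect, were -2.13 for MRPL12, -1.70 for MRPS6, -1.05 for MRPL34, -0.81 for MRPS35, -0.79 for MRPL14, -0.69 for MRPL44, -0.50 for MRPL45, -0.45 for MRPS21 and -0.45 for MRPL49. Positive differences were 0.96 for MRPS18A and 0.71 for MRPS25. MRPS6 and MRPL34 were called in C4-2 alone, and the other 9 were called in opposite directions in the lines. MRPL12 rests on 9 to 66 reads per library. MRPL12, MRPS18A, MRPS25, MRPL34, MRPL49 and MRPS6 share exon bases with another protein-coding gene, and MRPS35, MRPL14, MRPL44, MRPL45 and MRPS21 share none.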

How the results depend on the processing

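In C4-2, total counts with no scaling factor gave 23 members higher and 11 lower and limma on log2(FPKM + 1) gave 22 and 12, against 11 and 22 with TMM. In 22Rv-1 the members higher numbered 27 with total counts, 26 with limma and 10 with DESeq2, against 17. Leaving out each library in turn gave 7 to 15 members higher in C4-2 (7 without ARv7 replicate 3), 17 to 25 lower in C4-2, 10 to 16 higher in 22Rv-1 (10 without shARv7 replicate 3), and 7 to 14 positive differences between the responses (14 without C4-2 control replicate 3). The other 199 alternative values of the counts, counts over all genes included, stayed within 1.5 times of the main value. No named member changed sign in any alternative run, where 838 alternative values kept the call and 18 lost it, for MRPL23 and MRPL3 in C4-2 and MRPL43, MRPL22, MRPL14 and MRPL27 in 22Rv-1, as given with each. The share of counts rose to 0.449% to 0.515% as group means when mitochondrially encoded and cytosolic ribosomal protein genes were left out of the total. Replicate numbers did not pair the libraries: deviations of libraries with the same number correlated at -0.06 to 0.02, and the fit with a replicate block gave 10 members higher and 20 lower in C4-2 and 14 and 10 in 22Rv-1. Members with few reads (MRPL12, MRPL46, MRPS18C, MRPS28, MRPL2 and MRPS24) allow only large changes to be seen.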
